A study of Rattus norvegicus with 6 samples.

Results

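The mitochondrial carrier family, here the genes named Slc25a with a number together with Ucp1, Ucp2 and Ucp3, was followed in RNA of rat kidney with chronic kidney disease (CKD) and of control kidney (Sham). Members were chosen by gene name alone: 53 of the 31368 genes in the count table matched, 4 of them copies or pseudogenes by their names (Slc25a5-ps9, Slc25a36-ps1, Slc25a39-ps5 and Slc25a36l1). Slc25a3 and Slc25a16, a phosphate carrier and a carrier tied to coenzyme A, were not analysed here. Of the 53 members, 41 had enough counts to be tested and 12 did not.

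RNA came from renal tissue of wild-type male Sprague-Dawley rats, with the disease model set up in animals 8 weeks old. There were 3 Sham libraries and 3 CKD libraries, with 15918035 to 17503644 assigned counts each. The sources used here state neither how the disease was caused nor whether each library is a separate animal. The p-values therefore measure the spread between 3 samples a group, and that spread could be technical. Levels are CPM (counts scaled to a common library size) after TMM scaling, which corrects for differences in library composition, with the mean ± SD over n = 3 libraries per group, and tests are edgeR's quasi-likelihood test with Benjamini-Hochberg adjustment over all 15371 genes tested, at a threshold of 0.05.

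Carriers of this family are small proteins of the inner mitochondrial membrane that move nucleotides, phosphate, keto acids, amino acids, cofactors and iron between the cytosol and the matrix. Without them mitochondria could not export ATP, and fatty acids joined to carnitine could not reach the enzymes that burn them. The proximal tubule and the thick ascending limb of the kidney, which spend much ATP on sodium transport, are rich in mitochondria.

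Libraries stood apart in ways that touch these genes. Sham 2 had 37.9% of its counts in genes of the mitochondrial genome, against 14.4% and 15.3% in Sham 1 and Sham 3 and 8.83% to 10.8% in CKD. All 10 proximal tubule markers were detected, with none at 0, and their summed level was lowest in Sham 2 (5849 CPM) and ran from 10906 to 21772 CPM in the other 5 libraries. Markers of skeletal muscle summed to at most 0.965 CPM and those of adrenal cortex to at most 6.22 CPM in any library. The 4 adipocyte markers summed to 149, 42.3 and 15.1 CPM in Sham 1, 2 and 3 and to 13.6 to 27.9 CPM in CKD, with 0 of the 3 tested passing in edgeR, DESeq2 or limma-voom (1 at an unadjusted p under 0.05), and most of the sum in Sham 1 was Cidec (135 CPM). In this bulk tissue, fewer cells of a type and less RNA per cell cannot be told apart.

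Slc25a25, Slc25a33 and Slc25a24 passed the test. Slc25a25, a calcium-regulated carrier that exchanges ATP-Mg for phosphate, fell 10.9-fold in CKD, and Slc25a33, a carrier of pyrimidine nucleotides, fell 7.37-fold. Slc25a24, a close relative of Slc25a25 with the same substrates, rose 3.40-fold. Thus 1 of 41 tested members rose (2.44%) and 2 fell (4.88%), where over all genes tested 2.67% rose and 1.15% fell (3.82% in either direction, against 3 of 41 members or 7.32%). The share that rose is near that of all genes, and the share that fell rests on 2 genes. Leaving out CKD 1 or CKD 2 left the edgeR test with 0 calls over the whole table (at an unadjusted p under 0.05 there were 2330 and 2312 genes, among them 12 and 11 members), so all 3 calls ended there. Without Sham 2 or Sham 3 the whole table kept 2 and 7 calls, where the fit of all libraries had 587. A call lost in these fits is therefore not particular to a member.

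The promoters of these 3 genes are shown because the first pair fell together and the third moved the other way. Each runs from 250 bases before to 50 after the gene's start in RefSeq (build GRCr8): chr3:36116532-36116831 on the minus strand, chr5:165502924-165503223 on the minus strand and chr2:199449175-199449474 on the plus strand, written 5′ to 3′ along the gene. Capitals mark the motifs found on either strand: the cyclic AMP response element TGACGTCA, the E-box CACGTG, the GC box GGGCGG and the CCAAT box CCAAT.
Slc25a25: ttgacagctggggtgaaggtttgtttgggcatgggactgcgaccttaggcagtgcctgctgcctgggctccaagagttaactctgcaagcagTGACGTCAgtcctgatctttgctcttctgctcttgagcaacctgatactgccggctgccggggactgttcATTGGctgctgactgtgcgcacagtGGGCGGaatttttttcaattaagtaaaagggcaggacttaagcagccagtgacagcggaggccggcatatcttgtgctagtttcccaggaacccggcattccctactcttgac
Slc25a33: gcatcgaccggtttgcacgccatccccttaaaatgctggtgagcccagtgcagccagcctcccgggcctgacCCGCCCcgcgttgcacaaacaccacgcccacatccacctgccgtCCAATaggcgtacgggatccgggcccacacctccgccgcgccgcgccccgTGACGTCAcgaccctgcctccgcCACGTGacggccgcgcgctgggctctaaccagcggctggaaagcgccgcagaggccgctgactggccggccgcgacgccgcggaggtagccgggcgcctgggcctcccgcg
Slc25a24: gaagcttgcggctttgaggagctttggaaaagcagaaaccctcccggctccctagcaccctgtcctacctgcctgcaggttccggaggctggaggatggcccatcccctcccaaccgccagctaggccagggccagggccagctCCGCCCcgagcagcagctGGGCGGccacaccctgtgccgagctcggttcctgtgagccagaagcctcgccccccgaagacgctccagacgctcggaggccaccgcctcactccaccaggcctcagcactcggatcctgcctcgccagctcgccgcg
The full TGACGTCA stands in the promoters of Slc25a25, where it starts 158 bases before the gene's start, and of Slc25a33, where it starts 84 bases before it. Of 41 members with a promoter in the RefSeq table, these 2 held it (4.88%), against 1.83% of all 33469 promoters of the same length. It is not in the window of Slc25a24, which holds 2 GC boxes, a motif present in 25 of 41 members (61.0%) and in 33.1% of all promoters. CCAAT stood in 20 of 41 members (48.8%, all promoters 37.5%), and CACGTG in 5 (12.2%, all promoters 6.42%), Slc25a33 among them. A direct repeat as bound by PPAR receptors (AGGTCA, any base, AGGTCA) and the NRF1 motif (GCGCAT followed by GCGC) were found in 0 of 41 members and in 0.0538% and 0.852% of all promoters. The motifs were searched with the results known, overlap between different motifs was allowed, and a match is only a run of letters. The 33469 promoters were not selected by gene type and were counted by entry, while members were counted by name. The shares of members and of all promoters may therefore come from unlike sets. GC made up 54.0%, 72.7% and 68.7% of the promoters of Slc25a25, Slc25a33 and Slc25a24, where the median of all promoters was 51.7%.

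**Figure D1:**
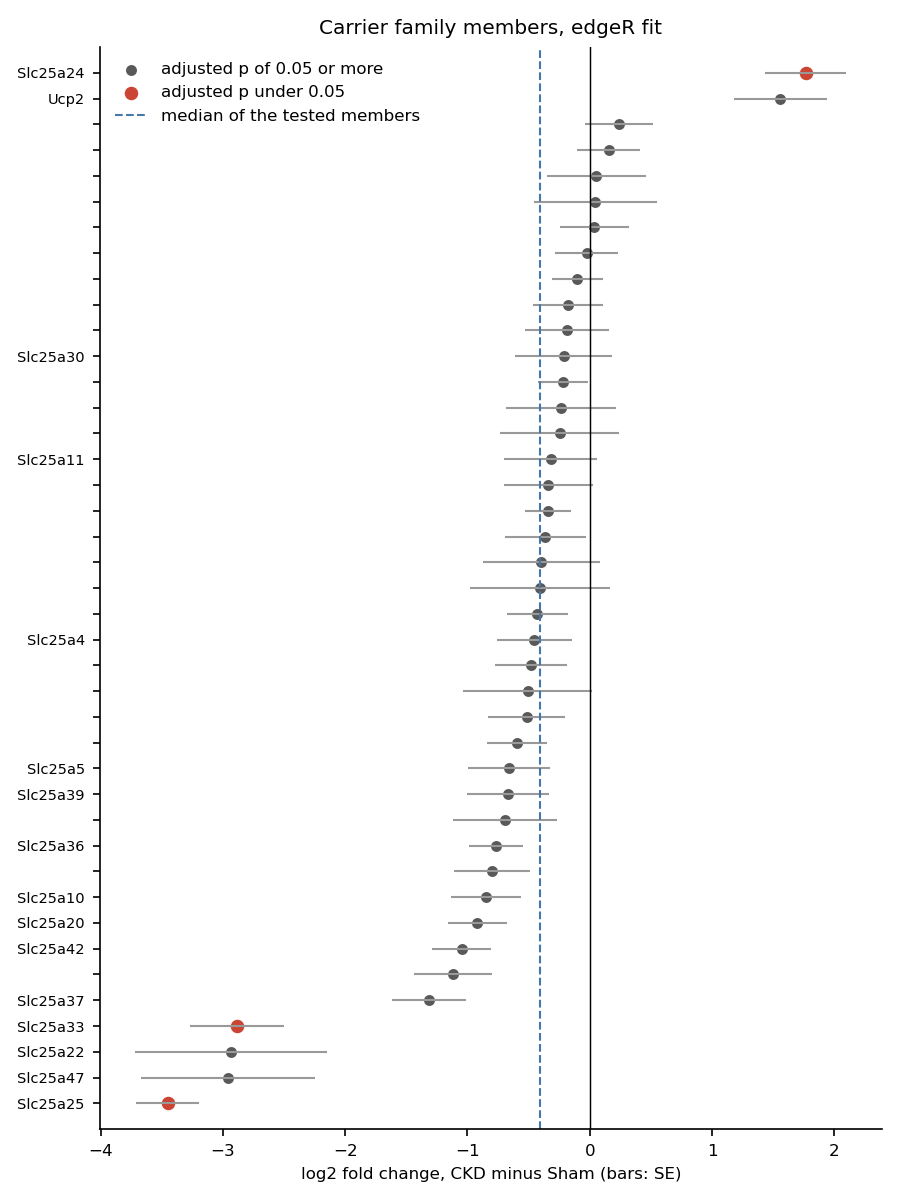
Log2 fold change of the 41 tested carrier genes, CKD minus Sham (x axis), with bars of 1 standard error; red points passed an adjusted p of 0.05 in edgeR and the dashed line is the members' median. Names are given for the members that the rule for values in every library selects. Slc25a25 stands lowest at -3.45 and Slc25a24 highest at 1.76, and 34 of the 41 points lie left of 0.

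Over the tested members, 34 of 41 had a negative fold change (82.9%, against 50.5% of all genes tested) with TMM scaling, but 20 of 41 when libraries were scaled by their totals alone. The median log2 fold change was -0.41 for the members and -0.01 for all genes with TMM, and 0.01 and 0.41 with library totals, so the gap between them was -0.40 in either case. After TMM scaling the 3 CKD libraries lay below all 3 Sham libraries in 10 of 41 members (24.4%, all genes 12.4%). They lay above them in 2 (4.88%, all genes 18.8%). The TMM factors were 0.837 to 0.893 in Sham and 1.13 to 1.19 in CKD. For each gene overlap was judged on the scaled levels, and it can differ with library totals alone. At an unadjusted p under 0.05, 12 members were lower (29.3%, all genes 10.3%) and 2 higher (4.88%, all genes 13.5%). These counts describe the tested members and carry no test as a list, and the 10 include Slc25a47, which had to differ to be tested. Summed over the family, the level was 5667, 3942 and 5035 CPM in Sham 1, 2 and 3 and 3043, 3180 and 3605 CPM in CKD 1, 2 and 3. As a share of counts outside the mitochondrial genome it was 0.544% ± 0.023 in Sham and 0.418% ± 0.0341 in CKD (n = 3 each), and by either measure every CKD library was below every Sham library. As a share of all counts, those of the mitochondrial genome included, it was 0.488%, 0.330% and 0.449% in Sham 1, 2 and 3 and 0.361%, 0.366% and 0.408% in CKD 1, 2 and 3, so there the groups overlapped, with Sham 2 the lowest library.

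Markers of several nephron segments had negative fold changes too, with TMM scaling. Of the thick ascending limb, principal and intercalated cell markers 0 passed in edgeR or limma-voom. An unadjusted p under 0.05 was seen for 2, 3 and 2, and DESeq2 called as many. Over all 15371 genes tested, 3655 had an unadjusted p under 0.05 and DESeq2 called 2497. The 5 thick ascending limb markers, none at 0, had 5 negative fold changes (median -0.92) and summed to 9637, 6288 and 3411 CPM in Sham 1, 2 and 3 and 1545, 3172 and 3831 CPM in CKD 1, 2 and 3. The 4 principal cell markers, none at 0, had 4 negative fold changes (median -1.42). They summed to 383, 1462 and 430 CPM in Sham 1, 2 and 3 and to 219 to 330 CPM in CKD. The 5 intercalated cell markers had 5 negative fold changes (median -1.56), with sums of 341, 1996 and 609 CPM in Sham and 219 to 420 CPM in CKD. In both lists Sham 2 was far above the other Sham libraries, and for intercalated cells Sham 1 lay within the CKD range. The median of the 10 proximal tubule markers was 0.01. The part of these cell types in the family's level was not tested.

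Adenine nucleotide and phosphate carriers. Slc25a5 and Slc25a4, the ADP/ATP translocases that hand new ATP to the cytosol, had the highest levels per gene length of the family, with means over all 6 libraries of 584 and 186 CPM per kb. Slc25a5 stood at 1172, 648 and 962 CPM in Sham 1, 2 and 3 and at 532, 568 and 661 CPM in CKD 1, 2 and 3. CKD 3 was just above Sham 2, so the groups overlapped, and the log2 fold change of -0.66 ± 0.33 (SE) did not pass (edgeR adjusted p = 0.271). Slc25a4, the translocase typical of heart and muscle, stood at 373, 194 and 225 CPM in Sham and 213, 199 and 167 CPM in CKD, with overlap and a difference of -0.45 ± 0.30 on the log2 scale (adjusted p = 0.403 in edgeR). Reads of Slc25a5 can be shared with its copies, among them Slc25a5-ps9, at 35.3 ± 8.88 CPM in Sham and 23.4 ± 2.54 CPM in CKD, and the row named Slc25a6, under 1 CPM in every library, so these counts are uncertain. Slc25a31, the translocase of the testis, had 0 counts in all 6 libraries, and 3 counts, the limit that a count of 0 allows, correspond to 0.145 to 0.211 CPM per library.

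Slc25a25, Slc25a24 and Slc25a23 form a group of carriers with calcium-binding domains that load or unload the matrix pool of adenine nucleotides. Slc25a25 stood at 309, 369 and 378 CPM in Sham 1, 2 and 3 and at 27.8, 29.5 and 39.2 CPM in CKD 1, 2 and 3. The groups lay far apart, and within each the libraries were close together. Its log2 fold change was -3.45 ± 0.26 (edgeR adjusted p = 0.0109), and by p it ranked 2 among all 15371 genes tested. Without any single library the log2 fold change stayed between -3.61 and -3.35, with an adjusted p of 0.0052 to 0.148. In the coordinates of the deposited table the gene lies on chromosome 3 from 15708703 to 15742216, minus strand (the build of these coordinates is uncertain).

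Slc25a24 stood at 5.80, 9.50 and 8.23 CPM in Sham and at 35.9, 26.2 and 17.8 CPM in CKD. All CKD libraries were above all Sham libraries, CKD 1 the farthest. The log2 fold change was 1.76 ± 0.33 (edgeR adjusted p = 0.0413). The call was also lost without Sham 2 or Sham 3 (adjusted p = 0.0617 and 0.119), where the whole table kept 2 and 7 calls. It was lost too in limma-voom (0.0597) and with the replicate number as a block (0.087, with 10 calls over the whole table). The log2 fold change stayed between 1.49 and 2.19 over 14 alternatives. Slc25a24 lies on chromosome 2 from 196761274 to 196799231, plus strand, in the deposited coordinates.

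Summed fibroblast and mural markers were also higher in every CKD library than in any Sham library. Of the 6, 1 rose in edgeR (all genes tested 2.67%) and 4 had an unadjusted p under 0.05 (all genes 3655 of 15371). DESeq2 called 4 (all genes 2497 of 15371) and limma-voom 0. All 6 were detected and none was at 0. They summed to 101 to 420 CPM in Sham and 712 to 1221 CPM in CKD, with the order CKD 1, CKD 2, CKD 3 in both the sum and Slc25a24. Within Sham the order was reversed: the markers summed to 420, 101 and 212 CPM in Sham 1, 2 and 3, where Slc25a24 was lowest in Sham 1 and highest in Sham 2. Of the 5 T cell markers 2 rose in edgeR, 4 had an unadjusted p under 0.05, and DESeq2 called 4 and limma-voom 0. None was at 0, and they summed to 8.00, 5.31 and 7.32 CPM in Sham and 39.7, 29.2 and 19.3 CPM in CKD. The CKD libraries stood in the same order as for Slc25a24. Within Sham the order of the T cell markers, too, was the reverse of that of Slc25a24. The macrophage markers, also higher in every CKD library, summed to 1362, 1652 and 674 CPM in CKD 1, 2 and 3. That order differed from that of Slc25a24. Their part in the result was not tested.

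Slc25a23, the third of the group, stood at 268 ± 70.6 CPM in Sham and 275 ± 35.0 CPM in CKD, with overlapping groups. Per gene length, Slc25a25 had the level rank 7 of 53 members in Sham and 29 in CKD, whereas Slc25a23 ranked 6 and 5. In each library, the level of Slc25a25 over that of Slc25a24 was 53.2, 38.9 and 45.9 in Sham and 0.774, 1.13 and 2.20 in CKD, all in CPM and not per length. Slc25a41, the relative without calcium-binding domains, lies 1197 bases from Slc25a23 in the deposited coordinates and had 2 counts in 1 library and 0 in the rest.

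**Figure D2:**
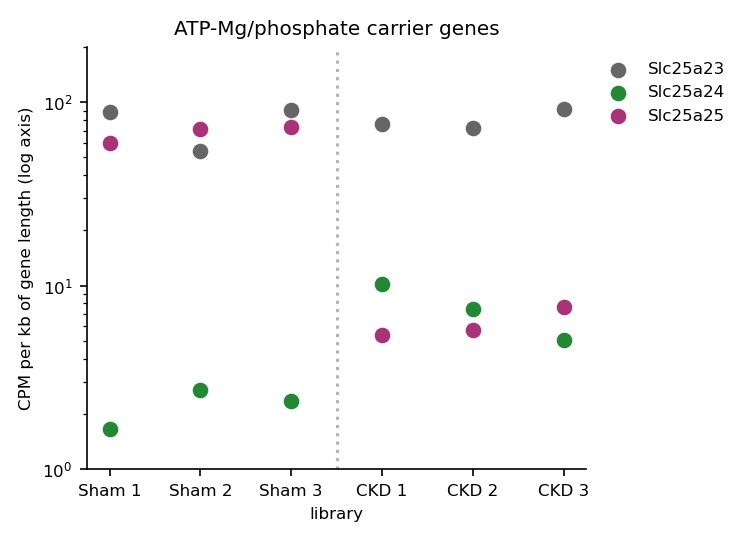
Level of Slc25a23, Slc25a24 and Slc25a25 in each library (x axis) in CPM per kb of gene length on a log axis, with a dotted line between Sham and CKD. Slc25a25 is at 60.0 to 73.5 CPM per kb in Sham and 5.41 to 7.62 in CKD, while Slc25a24 is higher in every CKD library than in any Sham library.

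Cofactor and nucleotide carriers. Slc25a33 and Slc25a36 carry pyrimidine nucleotides into the matrix, where they serve the synthesis of mitochondrial DNA and RNA. Slc25a33 stood at 67.5, 84.7 and 41.2 CPM in Sham 1, 2 and 3 and at 5.35, 9.44 and 11.5 CPM in CKD 1, 2 and 3. The lowest Sham library, Sham 3, was still well above the highest CKD library. Its log2 fold change was -2.88 ± 0.38 (edgeR adjusted p = 0.0285). Besides CKD 1 and CKD 2, leaving out Sham 2 or Sham 3 ended the call (adjusted p = 0.0552 and 0.0952), as did the replicate block (0.0528). In these fits the whole table had 2, 7 and 10 calls. The deposited table places it on chromosome 5 from 160195042 to 160219961, minus strand, and types it as a pseudogene, whereas RefSeq types Slc25a33 as protein-coding.

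Slc25a36 stood at 75.7, 90.0 and 110 CPM in Sham and 49.0, 49.7 and 63.1 CPM in CKD. The groups did not overlap, but the log2 fold change of -0.77 ± 0.22 did not pass (edgeR adjusted p = 0.0871). It passed in edgeR without Sham 1 (adjusted p = 0.0389) and in DESeq2 (0.0127). Slc25a42, which brings coenzyme A into the matrix, stood at 75.3, 46.0 and 55.1 CPM in Sham and 25.6, 26.8 and 32.9 CPM in CKD. Here too the groups were apart without a call (log2 fold change -1.05 ± 0.24, edgeR adjusted p = 0.0562). Slc25a42 passed in edgeR without Sham 1 (adjusted p = 0.043) and without a filter on low counts (0.0492), and in DESeq2 (0.00251).

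Slc25a39, needed for glutathione import into the matrix, had the fifth highest level per length. It stood at 397, 174 and 261 CPM in Sham and 151, 166 and 208 CPM in CKD, with overlap (log2 change -0.67 ± 0.34, edgeR adjusted p = 0.273). Its relative Slc25a40 was at 10.2 ± 0.867 and 9.98 ± 1.59 CPM. Slc25a51, the NAD carrier, had means of 126 ± 39.6 and 148 ± 13.3 CPM, Slc25a26, the S-adenosylmethionine carrier, of 13.7 ± 3.30 and 15.2 ± 1.38 CPM, and the peroxisomal Slc25a17 of 235 ± 76.0 and 208 ± 8.75 CPM. In each of these 4 genes the groups overlapped and the test did not pass. The group as a whole, 10 tested genes, had 1 fall and 0 rises in edgeR (all genes tested 1.15% and 2.67%). Its median log2 fold change was -0.43.

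Iron carriers. Slc25a37 (mitoferrin-1) and Slc25a28 (mitoferrin-2) bring iron into mitochondria for heme and iron-sulfur clusters. Slc25a37 stood at 19.1, 27.9 and 40.0 CPM in Sham and 11.5, 10.8 and 12.7 CPM in CKD. The CKD libraries lay close together below all Sham libraries, which differed more among themselves. The log2 fold change was -1.32 ± 0.30, just short of the threshold (edgeR adjusted p = 0.0548). It passed in edgeR without Sham 1 (0.0215) and without a filter on low counts (0.044), and in DESeq2 (0.00115). Slc25a28 stood at 57.8 ± 19.9 CPM in Sham and 41.5 ± 8.66 CPM in CKD, with overlap. Slc25a38, which brings in glycine for the first step of heme synthesis, stood at 124, 81.4 and 66.0 CPM in Sham and 29.0, 42.2 and 53.9 CPM in CKD; the groups did not overlap and the gene did not pass (edgeR adjusted p = 0.088).

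Acylcarnitine, keto acid and dicarboxylate carriers. Slc25a20 carries acylcarnitines into the matrix for fatty acid oxidation. It stood at 106, 61.5 and 94.0 CPM in Sham and at 44.2, 46.2 and 47.7 CPM in CKD. With TMM scaling the CKD values were nearly alike and below every Sham value. In raw counts Sham 2 (880) was below CKD 1, CKD 2 and CKD 3 (916, 929 and 932). The log2 fold change, -0.50 with library totals alone, was -0.92 ± 0.24 with TMM and did not pass (edgeR adjusted p = 0.0717). In DESeq2 it did (0.00638), as did Slc25a10, Slc25a22, Slc25a36, Slc25a37, Slc25a38, Slc25a42 and Slc25a47, none of which passed in edgeR. DESeq2 called 7.27% of all genes tested lower. The 8 genes listed as partners of Slc25a20 cover the carnitine shuttle, carnitine uptake into the cell and fatty acid oxidation in the matrix. They had 0 calls in either direction in edgeR, 8 negative fold changes and a median of -0.94. In 5 of the 8 the groups did not overlap, CKD below, and 5 had an unadjusted p under 0.05. Over all genes tested, 12.4% and 10.3% did so with CKD lower. DESeq2 called 5 of the 8 and limma-voom 0. Cpt1a, which makes acylcarnitines at the outer membrane, stood at 509 ± 82.6 CPM in Sham and 231 ± 31.3 CPM in CKD (log2 difference -1.14 ± 0.27, adjusted p = 0.0574 in edgeR), and Cpt1b, its muscle form, at 26.4 ± 12.5 and 7.46 ± 2.23 CPM (edgeR adjusted p = 0.0562).

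Slc25a10, the dicarboxylate carrier that exchanges malate or succinate for phosphate, was the third highest per gene length (144 CPM per kb). It stood at 658, 523 and 593 CPM in Sham and 274, 297 and 414 CPM in CKD. No CKD library reached a Sham library, and the log2 fold change of -0.85 ± 0.29 did not pass (edgeR adjusted p = 0.128). Slc25a11, the oxoglutarate carrier of the malate-aspartate shuttle, stood at 338, 121 and 205 CPM in Sham and 148, 176 and 209 CPM in CKD. Its groups overlapped, with Sham 1 high and Sham 2 low, and its log2 fold change of -0.32 ± 0.38 (edgeR adjusted p = 0.656) turned to 0.09 without Sham 1 and to 0.10 with library totals alone. The citrate carrier Slc25a1, at 107 ± 18.2 and 92.1 ± 5.28 CPM, and the oxodicarboxylate carrier Slc25a21, at 9.28 ± 4.73 and 7.04 ± 2.87 CPM, overlapped as well.

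Amino acid carriers. Slc25a22, which takes up glutamate with a proton, had the widest spread among Sham libraries of the 41 tested members, 11.8-fold from lowest to highest. It stood at 20.1 CPM in Sham 1 but at 237 and 210 CPM in Sham 2 and Sham 3, and at 23.3, 22.4 and 15.4 CPM in CKD 1, 2 and 3. Sham 1 thus lay within the range of the CKD libraries. With all libraries the log2 fold change was -2.93 ± 0.78 (edgeR adjusted p = 0.077), and without Sham 1 it was -3.51 and passed (0.0052). DESeq2 called the gene with all libraries (adjusted p = 0.000688).

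Several marker sums were also lowest in Sham 1 among the Sham libraries. The 3 distal convoluted tubule markers summed to 109, 1950 and 782 CPM in Sham 1, 2 and 3 and to 431, 464 and 382 CPM in CKD (Pvalb was at 0 in all), and the 5 intercalated cell markers, none at 0, to 341, 1996 and 609 CPM in Sham and 219 to 420 CPM in CKD. The 3 podocyte markers, none at 0, summed to 167, 617 and 497 CPM in Sham and 250 to 486 CPM in CKD. The thick ascending limb sum, in contrast, was highest in Sham 1. Their part in the result was not tested. Slc25a18, the other glutamate carrier, had 5 counts in the Sham libraries and 0 in CKD.

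Slc25a12 and Slc25a13, the aspartate-glutamate carriers, stood at 45.4 ± 13.0 and 186 ± 80.0 CPM in Sham and at 33.7 ± 3.33 and 147 ± 22.3 CPM in CKD, with overlap. Slc25a44, which carries branched-chain amino acids, had groups that did not overlap after TMM scaling, at 55.2 ± 7.58 and 43.6 ± 3.18 CPM. It did not pass (edgeR adjusted p = 0.317). Its log2 fold change of -0.34 turned to 0.075 with library totals alone. Slc25a47, best known from liver, was close to the detection limit, at 14, 25 and 24 counts in Sham 1, 2 and 3 and at 7, 1 and 3 counts in CKD 1, 2 and 3. Its log2 fold change was -2.96 ± 0.71 (adjusted p = 0.0629 in edgeR). It met the count filter only through the Sham libraries and so had to differ. The 9 tested genes listed as amino acid carriers include Slc25a47 and Slc25a48, whose place in the list is uncertain. Of the 9, 0 passed in edgeR in either direction and 0 in limma-voom. At an unadjusted p under 0.05 there were 3 (all genes 3655 of 15371), and in DESeq2 3 (all genes 2497 of 15371), Slc25a47 among them each time. With TMM scaling, the groups in 3 did not overlap, CKD below (all genes 12.4%): Slc25a38, Slc25a44 and Slc25a47, the last of which had to differ. The median log2 fold change of the 9 was -0.43.

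Slc25a15, the ornithine carrier of the urea cycle, was picked after its values were seen. It stood at 132, 39.1 and 154 CPM in Sham and 93.7, 87.6 and 94.6 CPM in CKD. The highest and the lowest library, Sham 3 and Sham 2, were also those with the highest and the lowest sum of proximal tubule markers. The part of these markers in the result was not tested. Among the Sham libraries, Sham 2 was lowest in 23 of the 41 tested members and Sham 1 highest in 19. The coefficient of variation within Sham was larger than within CKD in 31 of 41 members (median 31.2% against 15.2%). These counts were made for the members only. Over the whole table, too, Sham libraries differed more from one another than CKD libraries did. Chi-square over its degrees of freedom was 139 to 330 in pairs of Sham libraries and 30.9 to 67.8 in pairs of CKD libraries. Without Sham 2 the members' median log2 fold change was -0.54 in place of -0.41, and 0 rose and 1 fell, of only 2 genes called over the whole table.

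**Figure D3:**
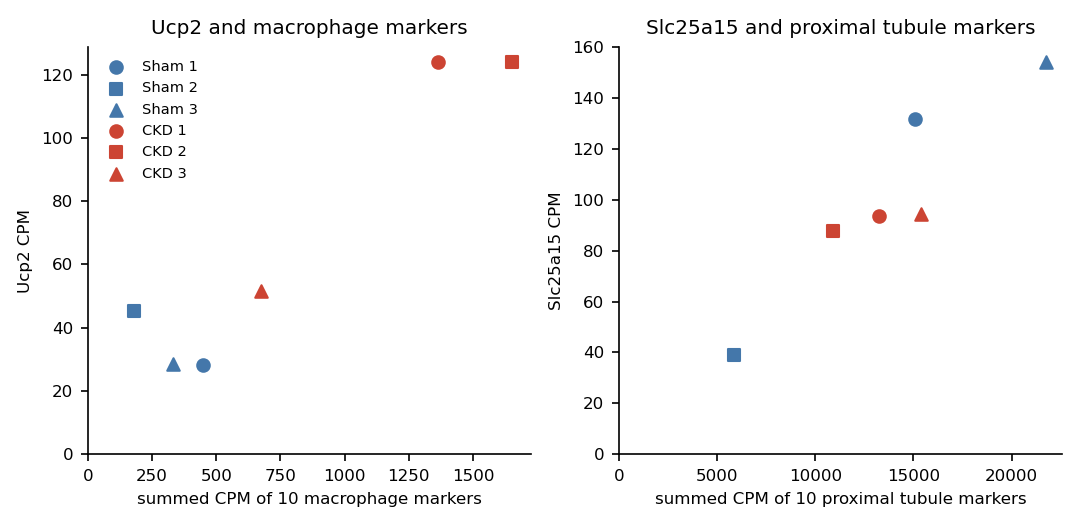
Left, Ucp2 in CPM against the summed CPM of 10 macrophage markers in each library; right, Slc25a15 in CPM against the summed CPM of 10 proximal tubule markers. Ucp2 is highest in CKD 1 and CKD 2, the libraries with the most macrophage marker RNA, and Slc25a15 is lowest in Sham 2 and highest in Sham 3. Slc25a15 was picked after its values were seen.

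Uncoupling proteins and relatives. Ucp2, found in many tissues and abundant in macrophages and other immune cells, stood at 28.1, 45.3 and 28.6 CPM in Sham 1, 2 and 3 and at 124, 124 and 51.7 CPM in CKD 1, 2 and 3. All CKD libraries were above all Sham libraries, CKD 3 by little. Its log2 fold change of 1.55 ± 0.38 missed the threshold (edgeR adjusted p = 0.0651), passed without CKD 3 (0.0336), with library totals alone (0.0214) and in DESeq2 (0.00502), and was positive in all 14 alternatives. Per gene length Ucp2 ranked 21 of 53 members in Sham and 7 in CKD.

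Of 10 macrophage markers 3 rose in edgeR (all genes tested 2.67%). At an unadjusted p under 0.05 there were 9 (all genes 3655 of 15371), in DESeq2 9 (2497 of 15371) and in limma-voom 2 (195 of 15371). All 10 markers were detected, none at 0. They summed to 448, 178 and 330 CPM in Sham 1, 2 and 3 and to 1362, 1652 and 674 CPM in CKD 1, 2 and 3, so CKD 3 was the lowest of the CKD libraries in both Ucp2 and the markers. Among Sham libraries the order differed, with Ucp2 highest in Sham 2, where the markers were lowest. Their part in the result was not tested.

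Ucp3, which lies 10447 bases from Ucp2 in the deposited coordinates, had 1 count in all libraries together, and Ucp1, the uncoupling protein of brown fat, had 0. Slc25a30, named for its discovery in kidney mitochondria, stood at 190, 63.9 and 97.3 CPM in Sham and 87.4, 90.2 and 126 CPM in CKD. Sham 1 and Sham 2 were the highest and the lowest of all, and the log2 fold change of -0.21 ± 0.40 (edgeR adjusted p = 0.79) turned to 0.29 without Sham 1 and to 0.20 with library totals alone. Slc25a14, a relative best known from brain, was low (2.90 ± 2.05 and 2.18 ± 0.421 CPM), and Slc25a27 was too low to test, at 0.307 to 0.745 CPM per library.

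Other tested members overlapped between groups and did not pass. Slc25a29 (basic amino acids) stood at 25.5 ± 4.16 CPM in Sham and 17.8 ± 6.23 CPM in CKD, Slc25a32 (folate and FAD) at 13.8 ± 6.74 CPM in Sham and 8.55 ± 1.46 CPM in CKD and Slc25a46, an outer membrane protein tied to mitochondrial shape, at 36.4 ± 6.17 CPM in Sham and 33.9 ± 3.49 CPM in CKD. Slc25a45, Slc25a48, Slc25a43, Slc25a35 and Slc25a36l1 had log2 fold changes from -0.80 (Slc25a35) to 0.05 (Slc25a48 and Slc25a36l1). Of the 12 members too low to test, Slc25a31, Slc25a36-ps1, Slc25a2 and Ucp1 had 0 counts in all 6 libraries. The other 8 were Slc25a27, Slc25a53, Slc25a52, Slc25a39-ps5, Slc25a18, Slc25a54, Slc25a41 and Ucp3, of which Slc25a54 lies 4447 bases from Slc25a24 in the deposited coordinates and had 2 counts in 1 library. Slc25a51 and Slc25a52 are near-identical copies, so the split of reads between them is uncertain.

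**Figure D4:**
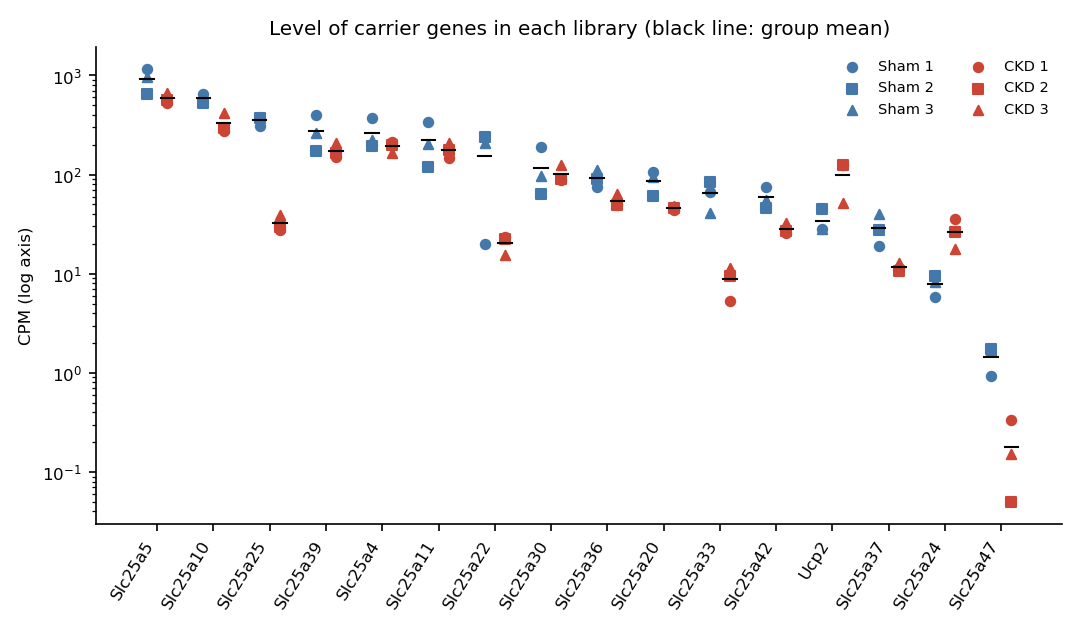
Level in CPM (log axis) of the carrier genes whose values are given for every library by rule, ordered by their Sham mean; blue symbols are Sham and red symbols CKD libraries, and black lines are group means. The groups are far apart in Slc25a25 and Slc25a33, and in Slc25a22 the Sham 1 point lies among the CKD points.

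Partner genes. The malate-aspartate and glycerol phosphate shuttles move reducing power with Slc25a11, Slc25a12 and Slc25a13. Of their 6 genes 1 fell and 0 rose in edgeR (all genes tested 1.15% and 2.67%), with a median log2 fold change of -0.72. At an unadjusted p under 0.05 there were 3 (all genes 3655 of 15371), in DESeq2 3 (2497 of 15371) and in limma-voom 1 (195 of 15371). Got1, the cytosolic aspartate aminotransferase, fell from 256, 579 and 319 CPM in Sham to 85.4, 75.5 and 84.5 CPM in CKD (log2 difference -2.23 ± 0.35, adjusted p = 0.0323 in edgeR), and its call ended with the replicate block (adjusted p = 0.0654) and without each library but Sham 1. Gpd1, the cytosolic glycerol phosphate dehydrogenase, differed by -1.40 ± 0.48 on the log2 scale and did not pass (adjusted p = 0.135 in edgeR).

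Of 20 genes of other inner membrane transport 0 passed in edgeR or limma-voom, with a median of -0.25. At an unadjusted p under 0.05 there were 2 (all genes 3655 of 15371), and in DESeq2 2 (all genes 2497 of 15371). The smallest p in that list belonged to Mpc1 and Mpc2, the subunits of the pyruvate carrier, a protein of another family: Mpc1 stood at 249 ± 13.3 and 142 ± 21.0 CPM and Mpc2 at 230 ± 76.6 and 124 ± 24.0 CPM (edgeR adjusted p = 0.0787 and 0.124), and neither overlapped. Of 12 outer membrane channels and translocases 0 passed in edgeR, DESeq2 or limma-voom (median -0.20). The 2 with an unadjusted p under 0.05 (all genes 3655 of 15371) were Tomm20 and Timm23 of the protein import machinery. Their log2 fold changes were -0.61 and -0.60 (edgeR adjusted p = 0.181 and 0.205).

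Among 8 regulators of mitochondrial genes 1 fell in edgeR (all genes tested 1.15%), and the median was -0.02. At an unadjusted p under 0.05 there were 2 (all genes 3655 of 15371), in DESeq2 2 (2497 of 15371) and in limma-voom 0. Ppard, a nuclear receptor that drives fatty acid use, fell from 109, 62.4 and 80.0 CPM in Sham to 35.5, 29.0 and 38.5 CPM in CKD (log2 difference -1.29 ± 0.26, adjusted p = 0.0433 in edgeR), and that call held in 1 of the 6 fits that left out a library (without Sham 1). It was also lost with library totals alone (adjusted p = 0.0617), in limma-voom (0.0546) and with the replicate block (0.0786). Ppargc1b, a coactivator, differed by -0.96 ± 0.33 on the log2 scale and did not pass (adjusted p = 0.131 in edgeR).

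**Figure D5:**
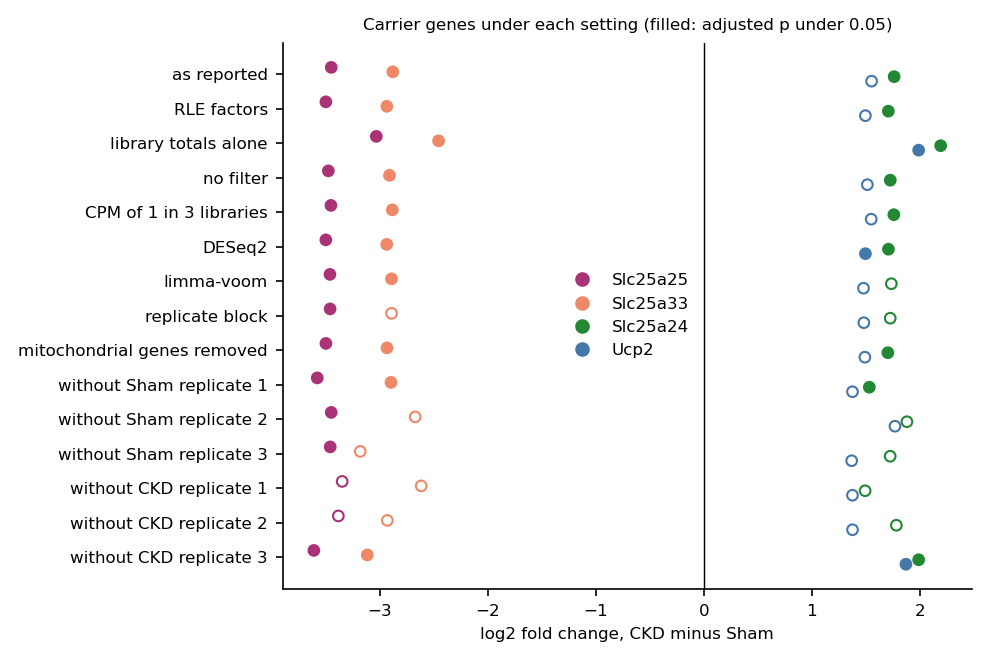
Log2 fold change (x axis, CKD minus Sham) of Slc25a25, Slc25a33, Slc25a24 and Ucp2 as reported and under each alternative (y axis); filled points have an adjusted p under 0.05. Every point keeps its side of 0, and all points are open without CKD 1 and without CKD 2.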

How the data were processed

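Per the labels' protocols, TRIzol was used for RNA extraction from kidney and the VAHTS Universal V5 kit for the libraries. The authors deposited raw counts per gene with no normalization, and a gene length in bases (another unit) as deposited. The submitters' processing notes name fastp 0.20.1, HISAT2 2.1.0, HTSeq 0.11.2 and build Rnor_6.0, without roles. Coordinates on chromosome 1 run to 260398790, and their build is uncertain. A strand setting for counting was not given in the sources used here: overlapping or antisense genes, and near-identical copies, have uncertain counts.

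Genes passing edgeR's filterByExpr (minimum count 10, minimum total 15) were scaled by TMM and fitted with group as the only term and robust quasi-likelihood (edgeR 4.0.16, limma 3.58.1, DESeq2 1.42.0, R 4.3.3). Differences are log2, CKD minus Sham. CPM and CPM per kb were computed here. Unused sample columns numbered 0. No library repeated another (within groups, chi-square over its degrees of freedom was 30.9 to 330). On simulated data made from these libraries (15371 genes, 200 changed), 3 of 100 genes set to change 2-fold were recovered, and 54 of 100 set to change 4-fold. False calls numbered 4, and 0 where no gene was changed. Members, lists and motifs were chosen with earlier results of these data known. Values in every library are given for members past the threshold, the 10 with the smallest p, the 5 highest per length and Slc25a20, Slc25a10, Slc25a30, Ucp2, Slc25a4 and Slc25a5; for partner lists, genes past the threshold and the 2 with the smallest p are named. Slc25a38 and Slc25a15 were added after their values were seen. Alternatives were RLE or no composition factors, no filter or CPM 1 in 3 libraries, DESeq2, limma-voom, a replicate block, removal of mitochondrial genes and each library left out. Counts carry no molecular identifiers, so limits from a count of 0 cover counting error only. The values of 1 tested member are not reported here, though it is counted among the members.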

Additional observations from a re-analysis of the deposited data

How the results depend on the processing

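The 16 members that the rule gives in every library kept their direction under all 14 alternatives (13 for Slc25a47, which a filter of CPM 1 in 3 libraries removed), except Slc25a11 (0.0951 with library totals alone, 0.0878 without Sham 1, and -0.65 to 0.0878 over the libraries left out) and Slc25a30 (0.20, 0.29, and -0.55 to 0.29). Of the pair added after their values were seen, Slc25a38 kept its direction and Slc25a15 (-0.24 as reported) turned to 0.17 with library totals alone and to 0.049 without Sham 3. The number of members higher, 1 as reported, was 2 with library totals alone and in DESeq2, 0 in limma-voom and with the replicate block, and 0 to 2 with a library left out. The number lower, 2 as reported, was 4 without a filter, 10 in DESeq2, 1 with the replicate block and 0 to 9 with a library left out (9 without Sham 1, 1 without Sham 2 or Sham 3, 0 without CKD 1 or CKD 2). Library totals alone moved the members' median to 0.0127, and leaving out a library gave -0.54 to -0.31. DESeq2 called 1379 genes of the whole table higher and 1118 lower, and the replicate block 4 and 6. With library totals alone the split was 2047 higher and 181 lower, with limma-voom 120 and 75, and without Sham 1 789 and 922. Without Sham 2 it was 0 and 2, and without Sham 3 it was 1 and 6. The labels do not say whether replicate numbers pair the libraries. Deviations from the group means correlated at -0.21, 0.0045 and -0.16 for numbers 1, 2 and 3, and at -0.092 to 0.196 for unlike numbers. With 3 libraries per group these values cannot decide it. Under the replicate block, which uses up degrees of freedom, Slc25a25 alone of the members passed. Low counts limit Slc25a47 and Slc25a6, which had 1 to 25 counts in every library.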
